A study of Homo sapiens with 28 samples.

Results

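Deoxynucleotides, the building blocks of DNA, are made by a small set of enzymes, and 8 of their genes were followed here by symbol among the 58278 genes of a count table. RRM1 and RRM2 encode the large and the small subunit of ribonucleotide reductase, which turns ribonucleotides into deoxynucleotides. TYMS (thymidylate synthase) makes thymidylate from deoxyuridylate, TK1 salvages thymidine, DTYMK phosphorylates thymidylate, DUT (dUTPase) removes dUTP, DCK salvages deoxycytidine and purine deoxynucleosides, and SAMHD1 breaks deoxynucleotides down. All 8 genes were present in the table, and all 8 passed the filter on low counts in every fit.

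Dividing cells need most of this supply in S phase. Transcription of several of these genes is known to rise as cells enter S phase, under E2F factors that the RB protein restrains until CDK4 and CDK6 phosphorylate it, and to fall in cells that leave the cycle. Glutamine provides nitrogen for the ring systems of nucleotides, and glutaminase turns it into glutamate.

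The cells were HCT116, an established human colorectal carcinoma line, here carrying luciferase and GFP and grown under the skin of male NOD SCID mice, which lack T and B cells but keep other host cells; the mice were 5 weeks old at injection. The mice received by daily gavage for 23 days vehicle (Control, 3 tumors), the CDK4 and CDK6 inhibitor Palbociclib at 100 mg/kg/day (5 tumors), the glutaminase inhibitor Telaglenastat (spelled Telaglenestat in the labels) at 150 mg/kg/day (4 tumors), or both (Combination, 4 tumors). A further 12 libraries came from lines explanted from such tumors and cultured without drug, 3 for each arm, and no label ties a line to one of the sequenced tumors. P-values measure the spread between tumors or between cultured lines, and no label names a batch.

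Reads counted on genes ranged from 6273834 to 10617936 in tumors and from 7198540 to 13815675 in cultures. Of 8 epithelial markers EPCAM, KRT8, KRT18, KRT19 and CDH1 were counted in every library, whereas CDX1 was at 0 in all of them and VIL1 and LGALS4 were at 0 in many. The summed level of 12 stromal, endothelial and leukocyte markers was 55.8 to 70.7 CPM (counts scaled to library size) in Telaglenastat tumors, 106 to 159 CPM in Combination tumors, 133 to 213 CPM in Control and Palbociclib tumors and 2.80 to 13.0 CPM in cultures; LUM was at 0 in all tumors and DCN and PTPRC in most, and the part of host RNA in the results was not tested. The summed level of the 8 epithelial markers was also lowest among tumors under Telaglenastat, at 1550 to 1709 CPM. It was 2254 to 2546 CPM in Combination tumors, 2614 to 3982 CPM in Control and Palbociclib tumors and 1317 to 2499 CPM in cultures. In bulk RNA, fewer cells of a type and less RNA per cell cannot be told apart.

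Treatment groups also stood apart in the GC content of the genes they counted well, and this touches several members. Per SD of GC content, a gene's log2 CPM relative to its mean over libraries changed by 0.25 ± 0.01 (SD, n = 3) in tumors of the Control group, 0.28 ± 0.11 (SD, n = 5) in Palbociclib tumors, -0.34 ± 0.03 (SD, n = 4) in Telaglenastat tumors and -0.21 ± 0.06 (SD, n = 4) in Combination tumors. Among the members the GC content of the longest transcript was 62.8% for TK1, 59.7% for DTYMK, 49.8% for TYMS, 46.0% for SAMHD1, 45.8% for RRM2, 44.2% for DUT, 43.0% for RRM1 and 38.8% for DCK. Each comparison was therefore repeated with a spline fit to GC content and transcript length subtracted from each library, and these values are called corrected. This trend and the drug effect cannot be told apart where they differ between the same groups.

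Coordinates below are on GRCh38. RRM1 lies on chr11:4094707-4138876 and RRM2 on chr2:10120698-10131419, TYMS on chr18:657604-673578 and DUT on chr15:48331011-48343373, and DCK on chr4:70992538-71030914, all on the plus strand. TK1 (chr17:78174075-78187233), DTYMK (chr2:241675742-241686991) and SAMHD1 (chr20:36889773-36951901) lie on the minus strand. The exons of TYMS overlap ENOSF1 and TYMSOS on the opposite strand and those of DCK overlap MOB1B on the same strand, so their counts could share reads with these neighbours. In GENCODE 29, exons of RRM2 are also overlapped on the same strand by the protein-coding AC007240.1, and exons of DUT on the opposite strand by AC023355.1, and neither gene had a row in the counts used here.

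The bases before the gene start show which of these genes carry promoter boxes known from cell cycle genes. Within the 250 bases before each RefSeq gene start (build GRCh38.p14, 35116 windows over all genes), the E2F motif (TTTCGCGC, TTTGGCGC or TTTCCCGC, both strands) was present in 2.32% of all windows, and among the 8 genes TYMS and DUT had it. A CCAAT box (CCAAT, both strands) occurred in 32% of all windows and in RRM1, RRM2, TK1, DTYMK and SAMHD1. The cell cycle homology region (TTTGAA or TTCGAA, both strands) occurred in 14.3% of all windows and in RRM1, DUT and DTYMK. An SP1 box (GGGCGG, both strands) occurred in 42.6% of all windows and in 6 of the 8 genes. A member was counted if any of its windows held the motif, whereas the shares are over single windows. RRM2 and TK1 had 2 windows each and DUT had 4, so these counts and shares are not alike. Before one of its 2 annotated starts RRM2 had 3 CCAAT boxes that were each followed by the same 8 bases, and it had 1 more before the other start, which is not shown. Those 3 are printed with 1 or 2 stretches from each of 6 other members, chosen for their CCAAT and E2F matches, and not every match is printed. Capitals mark the E2F, CHR and CCAAT matches.
RRM2 site 1 (chr2:10122604-10122632, plus strand): ggcaaggcgcagCCAATgggaagggtcgg
RRM2 site 2 (chr2:10122634-10122662, plus strand): ggcatggcacagCCAATgggaagggccgg
RRM2 site 3 (chr2:10122661-10122689, plus strand): ggggcaccaaagCCAATgggaagggccgg
RRM1 site 2 (chr11:4094645-4094673, plus strand): gcatgtccatatCCAATggggcccatggg
TK1 site 1 (chr17:78187113-78187141, minus strand): ggccgggcgctgATTGGccccatggcggc
TK1 site 2 (chr17:78187082-78187110, minus strand): ggccggctcgtgATTGGccagcacgccgt
DTYMK site 1 (chr2:241686886-241686915, minus strand): ggccccggCCAATcccTTCGAAtttggccg
SAMHD1 site 1 (chr20:36951735-36951764, minus strand): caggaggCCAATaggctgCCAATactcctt
TYMS site 1 (chr18:657603-657632, plus strand): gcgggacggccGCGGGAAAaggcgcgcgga
DUT site 3 (chr15:48332152-48332180, plus strand): ctgGCGGGAAAtttcggtTTTGGCGCgct
A match of letters is a description and not a binding site, and the counts do not measure binding.

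The first comparison asked how Palbociclib changed these genes in tumors. RRM2 fell most among the members. Its level was 339.9, 356 and 329 CPM in the Control tumors and 204, 151, 175, 138 and 141 CPM in the Palbociclib tumors. The groups did not overlap, and RRM2 fell by 1.08 on the log2 scale (SE 0.12, adjusted p = 1.50e-05 in the quasi-likelihood test of edgeR, adjusted after Benjamini and Hochberg over 14848 genes). RRM1, the partner subunit, was at 165, 154 and 168 CPM in Control tumors and at 102, 92.4, 103, 87.5 and 88.6 CPM in Palbociclib tumors. It fell by 0.78 (SE 0.11, adjusted p = 0.000132). TYMS was at 164, 168 and 158 CPM in Control tumors against 104, 86.0, 103, 78.8 and 92.1 CPM and fell by 0.81 (SE 0.09, adjusted p = 1.60e-05). For these 3 genes no Palbociclib tumor reached the lowest Control tumor, and the same held for DTYMK, DCK, DUT and TK1. The share of all genes that separate these groups in the same way was not counted. For TK1 the gap was narrow (84.3 against 85.7 CPM). With all 28 libraries scaled together, the TK1 groups overlapped (79.9 against 79.7 CPM).

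DTYMK and DCK also fell, by less certain amounts. DTYMK was at 16.6, 18.3 and 21.4 CPM in Control tumors and at 10.8, 8.94, 11.5, 12.8 and 12.9 CPM in Palbociclib tumors, a fall of 0.72 on the log2 scale (SE 0.21, edgeR adjusted p = 0.044). DCK was at 58.0, 59.8 and 49.4 CPM against 40.1, 48.0, 45.3, 41.1 and 38.0 CPM and fell by 0.39 (SE 0.09, edgeR adjusted p = 0.0115). TK1 was at 85.7, 96.2 and 103 CPM in Control tumors and at 84.3, 36.7, 79.7, 66.9 and 70.2 CPM in Palbociclib tumors, with a log2 fold change of -0.49 (SE 0.17, edgeR adjusted p = 0.099). The low TK1 value belonged to the library whose GC slope was 0.096 against 0.311 to 0.356 in the other 4, and corrected TK1 was lower by the test (log2 fold change -0.54, SE 0.12, edgeR adjusted p = 0.00636), 1 of 6 members lower after the correction where 4.20% of all genes were. DUT did not pass (-0.33, SE 0.10, edgeR adjusted p = 0.0637), and SAMHD1 was at 127 to 134 CPM in Control tumors and 106 to 149.8 CPM in Palbociclib tumors (-0.03, SE 0.10, edgeR adjusted p = 0.937). In all, 5 of 8 members fell and none rose, where 3.60% of all genes tested fell, and the members' median log2 fold change was -0.60 beside 0.00070 over all genes.

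**Figure D1:**
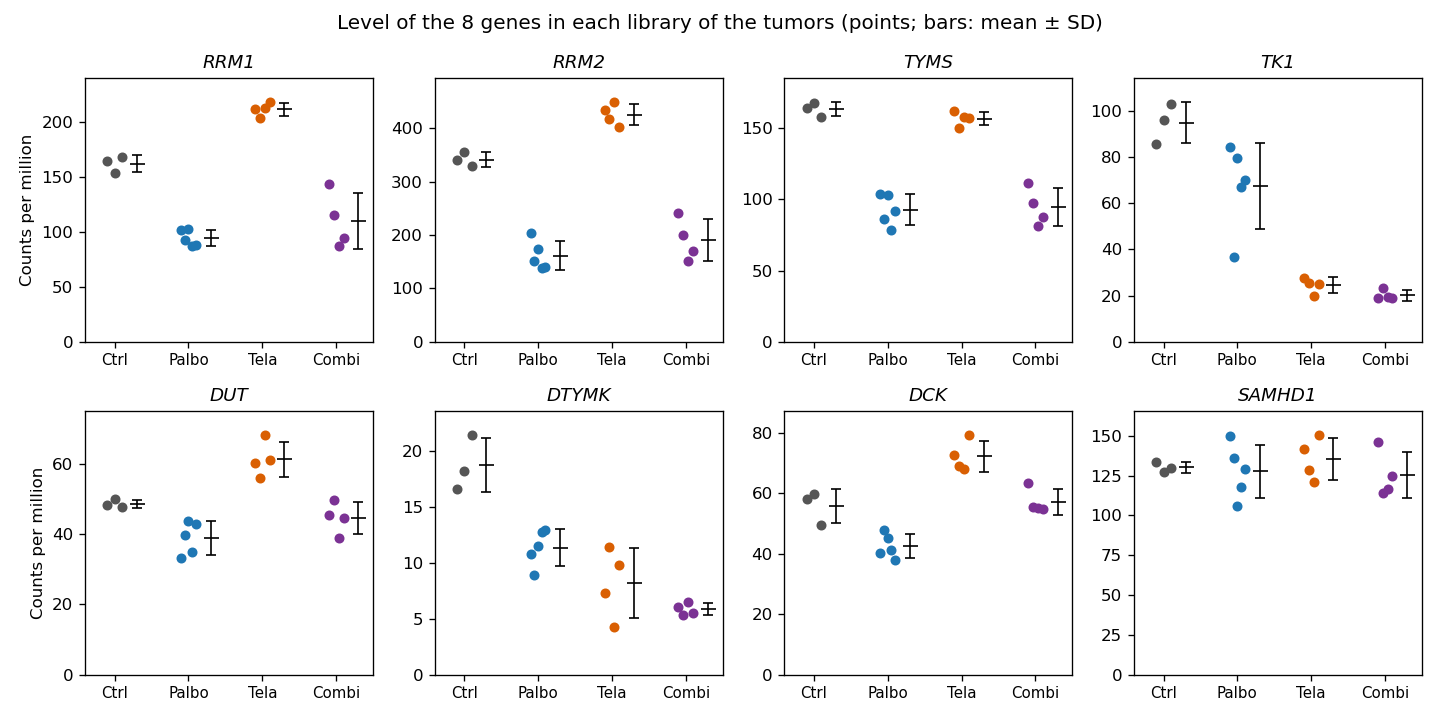
Level of each gene (CPM, linear axis from 0) in every tumor library of the Control (Ctrl), Palbociclib (Palbo), Telaglenastat (Tela) and Combination (Combi) groups, with the mean and SD beside the points. All 5 Palbociclib tumors lie below the 3 Control tumors for every gene but SAMHD1, narrowly for TK1 and DCK, and SAMHD1 overlaps between all groups. How many of all genes separate in this way was not counted.

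These Palbociclib values rest on few Control tumors. RRM1, RRM2 and TYMS passed in all 26 alternative fits of this comparison, DCK in 22 and DTYMK in 12, and the count of members called fell to 3 without Control tumor 1 or without Control tumor 2.

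Telaglenastat gave another pattern, and it followed the GC content of the genes. TK1 was at 27.7, 25.6, 19.7 and 24.8 CPM, below every Control tumor (85.7 to 103 CPM), and fell by 1.96 on the log2 scale (SE 0.19, edgeR adjusted p = 8.79e-08). DTYMK, at 7.29, 11.4, 4.25 and 9.82 CPM, fell by 1.19 (SE 0.23, edgeR adjusted p = 0.000221). These 2 genes hold the highest GC content of the 8. RRM1 was at 213, 204, 213 and 218 CPM, above every Control tumor, and was higher by 0.38 (SE 0.12, edgeR adjusted p = 0.00882), and RRM2 (402 to 449 CPM) by 0.32 (SE 0.13, edgeR adjusted p = 0.0471). DUT (56.0 to 68.0 CPM) was higher by 0.33 and DCK (68.0 to 79.2 CPM) by 0.37, with edgeR adjusted p of 0.013 and 0.00302. TYMS (150.2 to 162 CPM) and SAMHD1 (121 to 150.2 CPM) did not pass (-0.06 and 0.06, edgeR adjusted p 0.641 and 0.678). So 2 members fell and 4 rose, where 28.5% of all genes tested fell and 22.6% rose.

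Most of these calls did not survive the correction. The fitted trend alone moved TK1 by -1.17 and DTYMK by -0.94 on the log2 scale between Telaglenastat and Control tumors, and RRM1 by 0.53, RRM2 by 0.42, DUT by 0.46 and DCK by 0.62. Corrected, TK1 was still lower (-0.79, SE 0.14, edgeR adjusted p = 0.000251), DTYMK did not pass (-0.26, SE 0.21, edgeR adjusted p = 0.369), and none of the 4 rises remained. Over all genes tested, 2.82% were higher corrected, beside 22.6% uncorrected. RRM1, RRM2 and DUT then had log2 fold changes of -0.14, -0.10 and -0.12 with edgeR adjusted p of 0.307, 0.553 and 0.355. DCK (-0.25, edgeR adjusted p = 0.0264) and SAMHD1 (-0.35, edgeR adjusted p = 0.00779) passed in the opposite direction to their uncorrected values, so that 3 members were lower where 30.4% of all genes were. No median over all genes was taken in the corrected fit, so a shift common to all genes was not tested. TK1 was the one member called in the same direction in all 26 alternative fits.

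**Figure D2:**
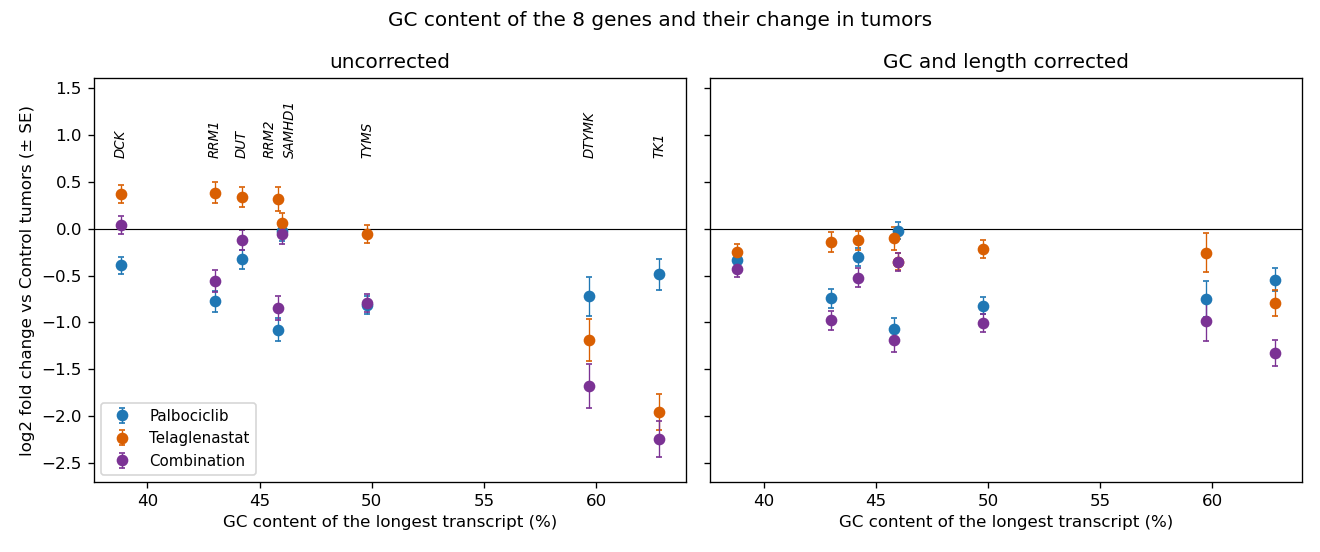
log2 fold change with SE of each gene in Palbociclib, Telaglenastat and Combination tumors against Control tumors (y axis) by the GC content of its longest transcript (x axis, percent), uncorrected on the left and corrected on the right. In the uncorrected Telaglenastat values, the genes at 38.8 to 46.0% GC lie above 0 and the pair at 59.7 and 62.8% lies at -1.19 and -1.96; corrected, 7 of 8 lie between -0.35 and -0.10.

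Tumors under both drugs had low RRM2, RRM1 and TYMS together with low TK1 and DTYMK. RRM2 was at 241, 199.9, 151 and 171 CPM in the Combination tumors, below every Control tumor (329 to 356 CPM), and fell by 0.84 on the log2 scale (SE 0.13, edgeR adjusted p = 2.77e-05). RRM1 was at 144, 116, 87.6 and 94.2 CPM and fell by 0.56 (SE 0.12, edgeR adjusted p = 0.00059), and TYMS was at 112, 97.2, 81.2 and 87.5 CPM and fell by 0.79 (SE 0.10, edgeR adjusted p = 2.62e-06). Again no treated tumor reached the lowest Control tumor of these 3 genes, and the same held for TK1 and DTYMK. For this comparison too, the share of all genes with such a separation was not counted. TK1 was at 18.7, 23.4, 19.5 and 18.7 CPM and fell by 2.24 (SE 0.19, edgeR adjusted p = 5.79e-08), and DTYMK was at 6.03, 5.38, 6.53 and 5.50 CPM and fell by 1.67 (SE 0.23, edgeR adjusted p = 8.82e-06). DUT (38.8 to 49.7 CPM), DCK (54.8 to 63.5 CPM) and SAMHD1 (114 to 146 CPM) did not pass, with log2 fold changes of -0.12, 0.04 and -0.06 and edgeR adjusted p of 0.376, 0.797 and 0.705. In all, 5 of 8 members fell, beside 26.9% of all genes tested, and their median was -0.67 beside -0.036 over all genes. Corrected, all 8 fell, from -0.36 (SAMHD1) to -1.33 (TK1), and RRM2 and TYMS fell by 1.19 and 1.01. Of all genes tested, 28.6% fell and 6.03% rose corrected, beside 26.9% and 17.6% uncorrected. Here too no corrected median over all genes was taken, and a shift common to all genes was not tested.

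**Figure D3:**
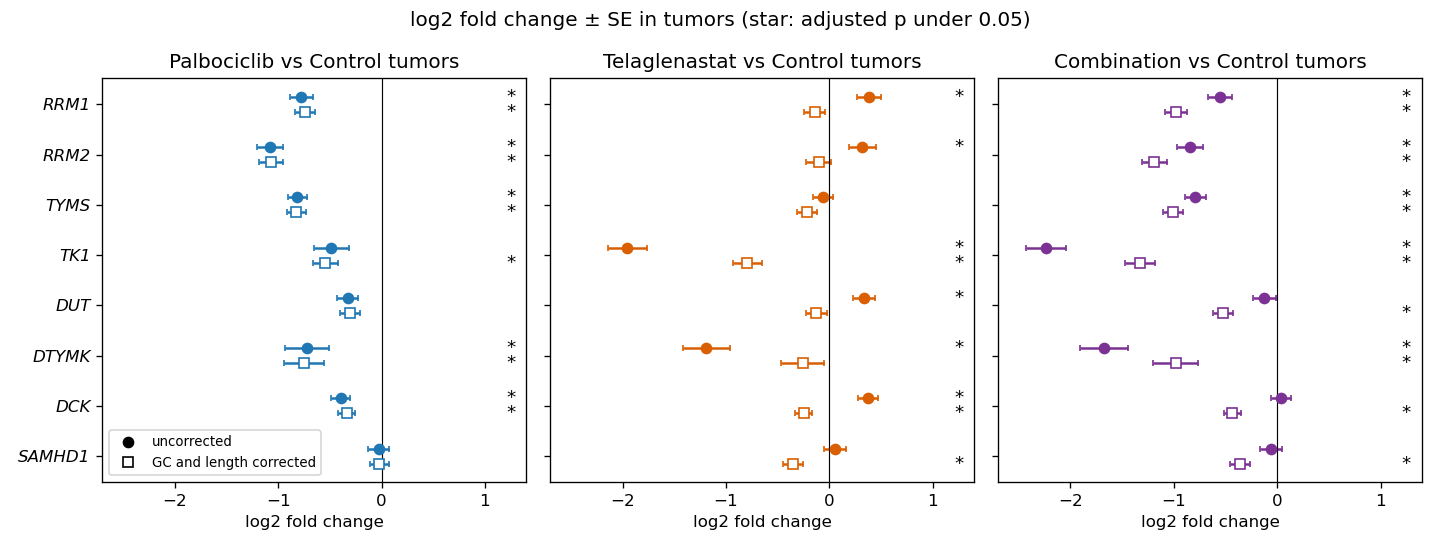
log2 fold change with SE (x axis) of each gene against Control tumors for each drug arm, uncorrected (filled circles) and corrected (open squares), with a star where the adjusted p was under 0.05. The Palbociclib values barely move, whereas the Telaglenastat value of TK1 moves from -1.96 to -0.79 and that of RRM1 from 0.38 to -0.14.

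The Combination was also set against each drug alone, and these comparisons share tumors with those above. Against Palbociclib tumors, TK1 (-1.75, SE 0.18) and DTYMK (-0.95, SE 0.22) were lower and DCK (0.43, SE 0.09) was higher, with edgeR adjusted p of 2.00e-07, 0.00123 and 0.000431, where 27.5% of all genes tested were lower and 20.1% higher. Corrected, TK1 remained lower (-0.78, edgeR adjusted p = 0.000174), DTYMK and DCK did not pass (-0.23 and -0.10), and SAMHD1 was lower (-0.33, edgeR adjusted p = 0.0055), 2 members lower where 27.4% of all genes were. Of all genes tested, 3.29% were higher corrected. Against Telaglenastat tumors, RRM1 (-0.94), RRM2 (-1.16), TYMS (-0.73), DUT (-0.46) and DCK (-0.34) were lower, 5 of 8 members where 9.89% of all genes tested were lower. Both groups of this comparison had negative GC slopes, and RRM1 (-0.84), RRM2 (-1.08), TYMS (-0.79) and DUT (-0.40) were lower corrected as well, joined by TK1 (-0.53) and DTYMK (-0.72), whereas DCK was not (-0.19, edgeR adjusted p = 0.121), so that 6 members were lower where 6.01% of all genes were. A test of whether the Combination differed from the sum of both drugs' log2 effects called no member by edgeR or by DESeq2, none at an unadjusted p under 0.05 with either, and 0.0673% of all genes tested.

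Ratios of 2 genes within a library need no scaling of library size. The log2 ratio of RRM2 to SAMHD1 counts was 1.34, 1.48 and 1.34 in Control tumors, 0.44, 0.15, 0.72, 0.22 and 0.13 in Palbociclib tumors and 0.72, 0.81, 0.38 and 0.45 in Combination tumors. It was lower in every Palbociclib and Combination tumor than in any Control tumor, by 1.06 and 0.80 on average. The raw p of each difference was the smallest its exact two-sided permutation test can give (0.0179 for 5 against 3 and 0.0286 for 4 against 3). The Benjamini-Hochberg value over the 9 tests of tumors was 0.0514 for both. The ratio of these 2 genes, close in GC content, was much the same corrected (-1.06 and -0.84). In Telaglenastat tumors it was 1.42 to 1.89 and overlapped with Control.

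The RRM2 to RRM1 ratio was lower by 0.28 in Combination tumors (0.74 to 0.86 against 0.97 to 1.21, exact permutation adjusted p = 0.0514) and by 0.31 in Palbociclib tumors, where 1 tumor overlapped with Control (exact permutation adjusted p = 0.0804). The TK1 to TYMS ratio was lower by 1.90 in Telaglenastat tumors and by 1.44 in Combination tumors (both exact permutation adjusted p = 0.0514). Corrected, these 2 differences shrank to -0.58 and -0.31, and the latter groups overlapped. No ratio passed 0.05 after adjustment in these groups, which contain 3 Control tumors.

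**Figure D4:**
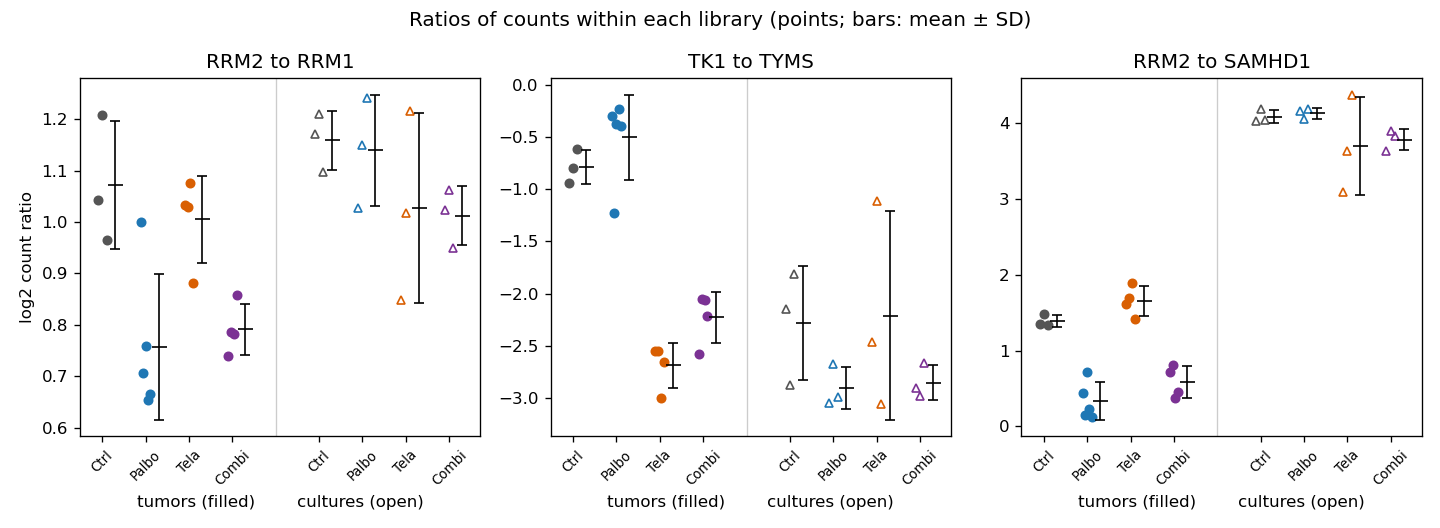
log2 ratio of the counts of 2 genes within each library (y axis) for RRM2 to RRM1, TK1 to TYMS and RRM2 to SAMHD1, in tumors (filled) and cultures (open), with the mean and SD of each group. The RRM2 to SAMHD1 ratio lies between 0.13 and 0.81 in Palbociclib and Combination tumors and between 1.34 and 1.48 in Control tumors.

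Levels in the drug-free cultures of explanted cells overlapped between arms for most members. RRM2 was at 675, 758 and 603 CPM in Control cultures, 711, 679 and 768 CPM in Palbociclib cultures, 392, 521 and 752 CPM in Telaglenastat cultures and 537, 701 and 598 CPM in Combination cultures. All 4 groups overlapped. TK1 was at 75.7, 48.1 and 89.8 CPM in Control cultures, 42.6, 47.8 and 43.9 CPM in Palbociclib cultures, 41.1, 144 and 55.8 CPM in Telaglenastat cultures and 35.7, 42.0 and 50 CPM in Combination cultures. The library with 144 CPM had a GC slope of 0.417, where the other 11 cultures had slopes from -0.13 to 0.17, and its corrected TK1 was 78.5 CPM. RRM1 ranged from 217 to 349 CPM over the 12 cultures, TYMS from 227 to 465 CPM, DUT from 67.7 to 128 CPM, DTYMK from 10.2 to 27.5 CPM, DCK from 66.5 to 108 CPM and SAMHD1 from 36.1 to 47.1 CPM.

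No member was called in cultures. By edgeR no gene passed in Palbociclib or Telaglenastat against Control or in the Combination against either drug (0% of 13985 genes), and 1 gene (0.00715%) passed in the Combination against Control. The same 5 comparisons gave 0 members with DESeq2, and at an unadjusted p under 0.05 edgeR gave 0 members in 4 of them and 1 (TK1) in the Combination against Telaglenastat. The largest difference was that of TK1 in the Combination against Telaglenastat (-0.92, SE 0.36, edgeR adjusted p = 0.323), and against Control TK1 stood at -0.67 (SE 0.36) for Palbociclib and -0.74 (SE 0.36) for the Combination, with edgeR adjusted p of 0.795 and 0.681. For RRM2 the log2 fold change was 0.08 (SE 0.19) in Palbociclib cultures and -1.08 (SE 0.12) in Palbociclib tumors, a difference that is tested directly below. The SE of TK1 in cultures was the widest of the members, so smaller changes of TK1 were not detectable.

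**Figure D5:**
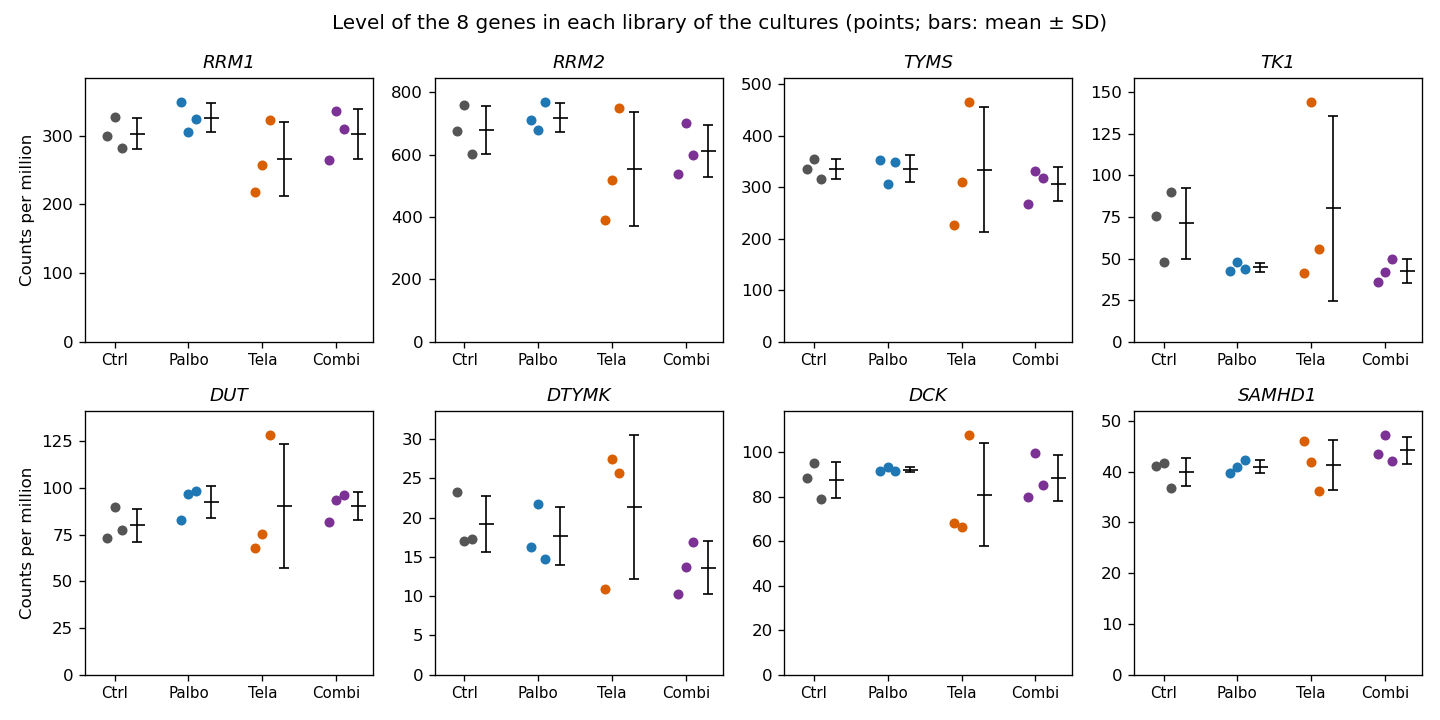
Level of each gene (CPM, linear axis from 0) in every drug-free culture, grouped by the treatment of the tumor it came from, with the mean and SD beside the points. The Telaglenastat cultures scatter most, with 392 to 752 CPM for RRM2 and 41.1 to 144 CPM for TK1, and groups overlap for RRM1, RRM2, TYMS, DUT and DCK.

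The difference between tumor and culture in the drug effect was tested directly. For Palbociclib it was negative for RRM1 (-0.89, SE 0.19, edgeR adjusted p = 0.0141) and RRM2 (-1.17, SE 0.24, edgeR adjusted p = 0.00989), beside 1.39% of all genes called, and TYMS came next (-0.83, SE 0.22, edgeR adjusted p = 0.0508). Corrected, RRM2 (-1.02) and TYMS (-0.75) passed and RRM1 did not (-0.67, edgeR adjusted p = 0.0671), beside 0.892% of all genes called. In the uncorrected fit without Control culture 3 no member passed. For Telaglenastat, RRM1 (0.67), RRM2 (0.70) and DCK (0.58) had more positive effects in tumors and TK1 (-2.05) and DTYMK (-1.26) more negative ones, with 34.1% of all genes called, and no member passed corrected, beside 6.95% of all genes. Without Telaglenastat culture 2, the library with the GC slope of 0.417, 2 members passed. For the Combination no member passed by edgeR, beside 2.91% of all genes. By edgeR 5 members had an unadjusted p under 0.05, and 1 passed with DESeq2. The shares of all genes at these 2 settings were not counted. Corrected, RRM1 (-0.72, SE 0.18, edgeR adjusted p = 0.0346) and TYMS (-0.74, SE 0.19, edgeR adjusted p = 0.0375) passed for the Combination, beside 2.37% of all genes.

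Without any drug, transcripts of most members were at higher levels in cultures than in tumors. In Control cultures RRM1 was 2.07-fold, RRM2 2.20-fold, TYMS 2.27-fold, DUT 1.83-fold and DCK 1.74-fold the level of Control tumors, with edgeR adjusted p from 1.48e-06 to 8.84e-05 in the fit of all 28 libraries. So 5 of 8 members were higher where 22.8% of all genes tested were higher. SAMHD1 was the exception and was 0.34-fold (log2 fold change -1.56, SE 0.12, edgeR adjusted p = 1.05e-10), 1 of 8 members lower where 23.1% of genes were lower. Its level was 127 to 134 CPM in the Control tumors and 36.7 to 41.8 CPM in the Control cultures, with no overlap. TK1 (-0.27, SE 0.30) and DTYMK (0.18, SE 0.27) did not pass. Corrected, SAMHD1 stayed at 0.31-fold, and DTYMK joined the higher genes (0.67), which made 6 members higher where 17.1% of all genes were and 1 lower where 21.8% were. The host markers fell beside SAMHD1, from 167 to 213 CPM summed in Control tumors to 4.601 to 7.681 CPM in Control cultures, and whether host transcripts add to the SAMHD1 counts was not tested.

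Levels per length allow the genes to be ranked against each other across the 8 conditions, here as RPKM, the CPM divided by the length of the longest transcript in kilobases, scaled over all 28 libraries. In Control tumors TYMS (91.7 ± 3.20 SD, n = 3) and RRM2 (86.8 ± 3.92) led with overlapping SDs, followed by TK1 (52.8 ± 4.93) and RRM1 (49.3 ± 2.02), whose SDs overlapped. Then came SAMHD1 (22.9 ± 0.48), DUT (21.1 ± 0.64), DCK (19.2 ± 1.97) and DTYMK (14.2 ± 1.84). In Control cultures TYMS (209 ± 11.8) and RRM2 (192 ± 21.9) led again, with RRM1 (102 ± 7.79) and TK1 (43.9 ± 13.1) behind, and SAMHD1 (7.79 ± 0.52) was last, below DTYMK (16.1 ± 2.92). TYMS led in 7 of the 8 conditions, in each with an SD that overlapped that of RRM2. RRM2 led in Telaglenastat tumors (117 ± 6.69 against 94.9 ± 3.29). These ranks use uncorrected levels.

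Across conditions, RRM2 was highest in Palbociclib (204 ± 14.2 RPKM) and Control cultures and lowest in Palbociclib tumors (41.0 ± 7.48), next to Combination tumors (52.1 ± 11.8), from which it did not differ beyond the SDs. TK1 was lowest in Combination (11.98 ± 1.36) and Telaglenastat tumors (14.6 ± 1.796), whose SDs overlapped, and highest in Control tumors (52.8 ± 4.93), next to Telaglenastat cultures with their wide spread (49.99 ± 34.7). SAMHD1 was the one member with every tumor group (22.4 to 25.7 RPKM) above every culture group (7.79 to 8.65 RPKM), and without the correction it was called in no comparison between tumor groups. The correction moved 31 of the 64 levels of 8 genes in 8 conditions by more than their SD. Corrected, the TK1 level was 26.5 ± 3.43 CPM in Combination tumors and 38.2 ± 4.01 CPM in Telaglenastat tumors, whose SDs did not overlap, and RRM2 was lowest in Combination tumors (171 ± 29.5 CPM) next to Palbociclib tumors (186 ± 34.5 CPM), whose SDs did.

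Some members varied together. Over the 16 tumors the log2 levels of RRM1 and RRM2 correlated with r = 0.98, RRM2 and TYMS with r = 0.97 and RRM1 and DUT with r = 0.88, and TK1 and DTYMK, the 2 genes of highest GC content, with r = 0.86, whereas TK1 and RRM2 had r = -0.15. SAMHD1 had r of at most 0.54 with any member in tumors and from -0.62 to -0.30 in cultures. Over the 12 cultures RRM1 and RRM2 had r = 0.95 and TK1 and DTYMK r = 0.72. These values describe libraries that share treatment groups and GC trends. Over all 28 libraries, after the tumor and the culture mean had been taken away, the genes most like RRM2 were ESCO2 (r = 0.98), CCNA2 (0.98) and PBK (0.98), those most like RRM1 were DLGAP5 (0.98), BUB1B (0.98) and RRM2 (0.98), and those most like TYMS were PBK (0.95), RRM2 (0.95) and FAM83D (0.94). ESCO2, CCNA2, BUB1B and DLGAP5 are known for roles in S phase and mitosis. The genes most like TK1 were SMARCB1 (0.99), ENO1 (0.98) and TKT (0.98), those most like DTYMK TUBA1B (0.90), MCM2 (0.87) and FANCE (0.87), those most like DUT DSCC1 (0.92), PTMAP5 (0.91) and HMGN2 (0.90), and those most like DCK CBFB (0.96), FAM98B (0.94) and DDX46 (0.94). SAMHD1 had no gene above r = 0.76 (ZNF888, with CTNND1 at 0.74 and ZNF81 at 0.73).

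Other genes of the supply pathway moved in both directions. Of 29 other genes of deoxynucleotide synthesis, salvage and turnover, 1 fell and 2 rose in Palbociclib tumors, where 3.60% of all genes tested fell and 2.55% rose. NT5E, a cell surface nucleotidase, was higher by 1.07 and TK2, the mitochondrial thymidine kinase, by 0.47 (edgeR adjusted p 0.00086 and 0.0137). The list median was 0.03. In Telaglenastat tumors 15 of the 29 were lower and 5 higher, where 28.5% of all genes tested were lower and 22.6% higher. These were led by GUK1 (-2.21), NT5C (-2.04), CDA (-1.56) and SLC29A1 (-0.999) on the lower side and RRM2B (0.51), CMPK1 (0.34) and NT5E (0.51) on the higher side. Corrected, 13 were lower and 2 higher, where 30.4% of all genes were lower and 2.82% higher. GUK1 (-1.07), NT5C (-0.63), CDA (-0.85) and SLC29A1 (-0.43) still passed on the lower side. None of the 3 rises named held, since CMPK1 was then lower (-0.30) and RRM2B (-0.13) and NT5E (0.07) did not pass. The 2 genes higher after the correction, singled out after their values were seen, were NME2 (0.82) and DNPH1 (1.05). In Combination tumors 14 were lower and 4 higher (11 and 3 corrected), where 26.9% of all genes were lower and 17.6% higher (28.6% and 6.03% corrected). Lower were NT5C (-1.99), SHMT2 (-1.19), GUK1 (-1.54) and SLC29A1 (-0.85), and higher were CMPK1 (0.54), TXN (0.52), NT5E (1.15) and GLRX (0.64). Of those 4 rises NT5E passed corrected (0.81, edgeR adjusted p = 0.00438), and CMPK1, TXN and GLRX did not.

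Genes of S phase and cell division moved beside the members in Palbociclib tumors. Of 14 such genes 9 fell with Palbociclib, where 3.60% of all genes tested fell, among them CCNA2 (-1.01), MKI67 (-1.05) and PCNA (-0.73). The median log2 fold change of the 14 was -0.78 beside -0.60 for the 8 members. With Telaglenastat 5 fell and 2 rose (median 0.065), where 28.5% of all genes tested fell and 22.6% rose. Corrected, 3 fell and none rose, where 30.4% of all genes fell and 2.82% rose. With the Combination 12 fell (median -0.83), where 26.9% of all genes tested fell. Whether the members changed apart from the share of dividing cells was not tested.

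The neighbours that overlap members can be set beside them. ENOSF1, which overlaps TYMS on the other strand, did not pass in Palbociclib tumors (0.17, SE 0.12, edgeR adjusted p = 0.549) while TYMS fell by 0.81, and it did not pass in Combination tumors (0.11). MOB1B, which shares exon bases with DCK on the same strand, did not pass in Palbociclib tumors (0.05) and was higher in Telaglenastat tumors (0.46, edgeR adjusted p = 0.000127), as uncorrected DCK was (0.37). RRM1-AS1, TYMSOS and TLDC2, which overlap RRM1, TYMS and SAMHD1, had at most 15 counts in any library, and the pseudogene copies of RRM2, TYMS and DUT had at most 36 counts over all 28 libraries.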

How the data were processed

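Gene counts of 28 poly(A) RNA-seq libraries were used. The authors made strand-specific libraries, sequenced 60-base single-end reads and counted them with STAR, and the deposited values are whole-number counts per gene without normalization; per the labels, processing used CASAVA 1.8 and hg38, and the STAR version, annotation release and strand setting are not given in the sources used here. Members and lists were chosen with earlier results of these data known.

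Tumors (16) and cultures (12) were fitted apart, and all 28 libraries together for contrasts between them, with edgeR 4.0.16 in R 4.3.3 (TMM, filterByExpr with a minimum count of 10, glmQLFit and glmQLFTest, Benjamini-Hochberg adjustment over all genes tested, threshold 0.05). SEs were taken from the fold change and F statistic. CPM used the scaling of each kind of library, a choice made after seeing the data, and RPKM that of all 28. The correction removed robust spline trends (5 degrees of freedom each, MASS 7.3.60.0.1) on GC content and log length from each library. Ratios were log2 of counts plus 0.5, tested by exact permutation. Annotation was GENCODE 29, matched for 57940 of 58278 genes, and promoter windows came from RefSeq (GRCh38.p14). Named genes are all 8 members, up to 4 pathway genes per comparison and direction by smallest adjusted p, the 3 most alike genes of each member, and overlapping neighbours; S phase genes named with values were chosen after these were seen. Some pathway genes that this rule picks are not reported here. The edgeR count test, with and without the correction, and the exact permutation test were tried on simulated data. Alternatives were DESeq2 1.42.0, its size factors, other filters, other samples in the fit, a table of protein-coding genes, a block for replicate number, the correction, and leaving out each library.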

Additional observations from a re-analysis of the deposited data

Results flagged for a closer look

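In Combination tumors 1 library stood apart from the other 3 for TK1 (23.44 CPM in tumor 2 against 18.7 to 19.5) and another for DCK (63.53 CPM in tumor 1 against 54.8 to 55.4), by Dixon's criterion. These were 2 of 24 groups examined, and chance gives about 1 in 20.

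Drug effects differed between tumors and cultures by an interaction test (edgeR, all 28 libraries) for 7 pairs of gene and drug. Of all genes tested, 1.39% were called for the Palbociclib difference and 34.1% for the Telaglenastat difference. The Palbociclib effect on the log2 scale was more negative in tumors by -0.89 for RRM1 and by -1.17 for RRM2. The Telaglenastat effect was more positive in tumors by 0.67 for RRM1, 0.70 for RRM2 and 0.58 for DCK, and it was more negative by -2.05 for TK1 and by -1.26 for DTYMK. None of the 5 Telaglenastat differences passed after the GC and length correction. GC slopes were taken relative to libraries of the same kind, so those of tumors and cultures have different zero points. Their mean was -0.34 in Telaglenastat and 0.25 in Control tumors, and 0.12 in Telaglenastat and 0.08 in Control cultures. The Telaglenastat culture mean includes 1 library at 0.417. The part of the GC slopes in these differences cannot be told apart from that of the drug.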

How the results depend on the processing

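Without the leave-one-out fits, 1168 alternative values of single members were computed. Of these, 1075 kept their side of the threshold without reversing (86 of them were uncalled and changed sign), 31 lost the call, 46 gained one and 16 reversed. Reversed here means a change of sign where the main value, the alternative value or both were called. The cause was not tested. With the GC and length correction the number of members called became 3 for Telaglenastat and 8 for the Combination against Control tumors, and for the difference between tumors and cultures 0 for Telaglenastat and 2 for the Combination. In Telaglenastat against Control tumors the correction changed the sign of RRM1 (-0.14), RRM2 (-0.10), DUT (-0.12), DCK (-0.25) and SAMHD1 (-0.35). Of these DCK alone was called in both directions. RRM1, RRM2 and DUT lost their call, and SAMHD1 was called only corrected. The sign of DCK also changed in the Combination against Control (-0.44), where it was called only corrected. It changed too against Palbociclib (-0.10) and in the Telaglenastat difference (-0.03), where DCK lost its call.

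Replicate numbers did not pair the samples (median r of same-numbered libraries -0.006 in tumors and -0.019 in cultures). The replicate block gave 3 members for Palbociclib against Control tumors and 1 for the Palbociclib difference between tumors and cultures. The replicate block with the correction gave 3 for Telaglenastat and 8 for the Combination against Control tumors, 3 for Control cultures against Control tumors, and 0 for both the Palbociclib and the Telaglenastat difference. With that block and correction the reversed values were -0.12 (RRM1), -0.06 (RRM2), -0.13 (DUT), -0.27 (DCK) and -0.36 (SAMHD1) for Telaglenastat, and for DCK -0.45 and -0.12 in the Combination against Control and Palbociclib and -0.04 in the Telaglenastat difference.

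One fit of all 28 libraries called 3 members for Palbociclib against Control tumors. For the Combination against Palbociclib tumors DESeq2 called 6, its size factors 5 and no filter 5. With no filter, 1 member was called in cultures in Palbociclib and in the Combination against Control and in the Combination against Telaglenastat. Fitting only the groups compared gave 3 members for the Telaglenastat and 3 for the Combination difference, and for the latter DESeq2 gave 1, no filter 5 and at least 10 counts in every library 1.

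Leaving out a library gave 3 to 5 members for Palbociclib against Control tumors, 3 to 6 for the Combination against Palbociclib tumors (6 without Combination tumor 3) and 0 to 2 for the Combination against Telaglenastat cultures (2 without Telaglenastat culture 1). For the differences it gave 0 to 3 for Palbociclib (0 without Control culture 3, 1 without Control culture 1 or Palbociclib culture 1), 2 to 6 for Telaglenastat (2 without Telaglenastat culture 2, and 3 without Telaglenastat culture 1, Control culture 2 or Control tumor 3) and 0 to 2 for the Combination (2 without Telaglenastat culture 3). The Palbociclib ratio differences ranged from -0.38 to -0.25 for RRM2 to RRM1, from -1.15 to -1.01 for RRM2 to SAMHD1 and from 0.20 to 0.46 for TK1 to TYMS. With 3 Control tumors, the exact tests could not reach 0.05 after adjustment unless most comparisons gave their smallest p, and counts of DTYMK were the lowest of the members.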
